A study of Mus musculus with 32 samples.

Results

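The delta protocadherins are a small family of non-clustered protocadherins, and 8 of them were followed here in the neural tube of the mouse embryo at E9.5: Pcdh1, Pcdh7 and Pcdh9 of the delta-1 group and Pcdh8, Pcdh10, Pcdh17, Pcdh18 and Pcdh19 of the delta-2 group. They were taken as a family, by name, and all 8 were found by Ensembl identifier among the 48576 identifiers measured. RNA-seq was performed on forebrain (Fb) and midbrain (Mb) tissue, with 16 libraries from each tissue and 32 in all, and the levels are in FPKM, fragment numbers scaled to the length of the gene and to the depth of the library. Both tissues were represented by 6 WT, 4 TKO_Ex, 3 DKO_Ex and 3 DKO_CD libraries, all labelled with the strain B6C3F1. WT embryos came from matings of WT animals. The mutants came from matings of animals heterozygous for Cdh6, Cdh8 and Cdh11, in each of which CRISPR/Cas9 had removed a short stretch of the exon with the start codon. TKO_Ex lacked all 3 of these type II cadherins, and DKO_Ex were Cdh8/11 double knockouts, both with exencephaly. DKO_CD had a cranial defect without exencephaly; the sample labels give it as a Cdh6/8 double knockout, whereas the methods of the study give Cdh8/11. In 12 files of the double knockouts, the column heading named the other double knockout group than the sample record, and the headings were followed. The tissue was whole and held several cell types, so fewer expressing cells and less RNA per cell cannot be told apart in any value given here.

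Delta protocadherins are single-pass adhesion molecules of the cadherin superfamily. Delta-1 members carry more extracellular cadherin repeats than delta-2 members, and both groups have a cytoplasmic tail with short conserved motifs in place of the catenin-binding tail of the classic cadherins. Several delta-2 tails bind the WAVE complex, which drives branched actin assembly, and some members act together with N-cadherin (Cdh2) in cell sorting and cell movement. In the developing brain they are known for patchy expression that follows the subdivisions of the neural tube. On GRCm38, Pcdh8 lies at chr14:79766775-79771312 (minus strand), Pcdh17 at chr14:84443563-84539002 (plus) and Pcdh9 at chr14:93013410-93890679 (minus), so 3 members share chromosome 14. Chromosome 3 carries both Pcdh10, at chr3:45378398-45435623 (plus), and Pcdh18, at chr3:49743296-49757325 (minus). Pcdh7 lies at chr5:57717967-58133230 (plus) and Pcdh19 at chrX:133582860-133688987 (minus), and Pcdh1 lies on an autosome of its own among the members.

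The promoters of 3 members are shown because these members had the most different patterns in the values that follow: Pcdh8 was higher in the Mb, Pcdh19 was higher in the Fb, and Pcdh18 was abundant in both tissues. Each run holds the 250 bases before the RefSeq transcription start on GRCm38.p6, read 5′ to 3′ on the strand of the gene, with capitals for matches, on either strand, to the motifs searched.
Pcdh8, chr14:79771313-79771562: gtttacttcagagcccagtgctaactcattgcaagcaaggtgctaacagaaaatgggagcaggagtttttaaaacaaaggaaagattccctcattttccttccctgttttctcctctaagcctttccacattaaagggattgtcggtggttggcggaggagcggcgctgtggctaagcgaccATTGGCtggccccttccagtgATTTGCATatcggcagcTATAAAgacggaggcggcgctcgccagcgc
Pcdh19, chrX:133688994-133689243: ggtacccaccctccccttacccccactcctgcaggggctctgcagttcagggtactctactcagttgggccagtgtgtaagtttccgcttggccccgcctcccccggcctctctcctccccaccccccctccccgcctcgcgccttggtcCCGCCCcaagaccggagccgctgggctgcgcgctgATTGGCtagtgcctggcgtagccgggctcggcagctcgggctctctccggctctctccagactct
Pcdh18, chr3:49757317-49757566: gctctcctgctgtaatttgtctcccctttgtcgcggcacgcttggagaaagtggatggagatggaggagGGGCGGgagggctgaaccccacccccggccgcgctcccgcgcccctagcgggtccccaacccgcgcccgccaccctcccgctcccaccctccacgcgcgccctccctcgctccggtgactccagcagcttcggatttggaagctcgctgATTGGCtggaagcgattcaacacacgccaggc
In the Pcdh8 run, the capitals mark 3 motifs. ATTGGC, which reads as CCAAT on the opposite strand, lies 68 to 63 bases before the start. ATTTGCAT, the octamer, lies 47 to 40 bases before it, and TATAAA, known as the TATA box, 30 to 25 bases before it. In the Pcdh19 run they mark GGGCGG (an Sp site), on the opposite strand, at 100 to 95 bases and ATTGGC at 65 to 60 bases. In the Pcdh18 run they mark GGGCGG at 181 to 176 bases and ATTGGC at 32 to 27 bases. Among the 7 members with an entry, TATAAA and ATTTGCAT were matched only before Pcdh8. Of 32851 promoters of the same length, 12.4% held TATAAA, 1.6% ATTTGCAT, 13.5% ATTGGC and 32.7% GGGCGG. None of these 7 members held TAATTA, a homeodomain core present in 4.8% of all promoters, or TAATCC, an Otx core present in 6.3%. The GC content was 51.2% before Pcdh8, close to the median of 52.4% over all promoters, against 69.2% before Pcdh19 and 68.0% before Pcdh18. ATTGGC and ATTTGCAT were added to the search after these sequences had been seen, and a match describes the letters of the window, not a bound site.

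The smallest depth that explained the spacing of low values was 2.07 to 3.40 M fragments per library (median 2.78). Depths relative to each other follow from the values, whereas the absolute depth could be larger, and the fragment numbers given here are those at this smallest depth. The tissue markers followed the labels: all 7 forebrain markers were lower in WT Mb than in WT Fb and 5 of 7 midbrain and isthmus markers were higher. Some libraries stood apart. WT Mb replicate 5 had a summed level of the midbrain and isthmus markers of 23.4 FPKM, against 106 to 224 FPKM in the other WT Mb libraries. The Fb and Mb libraries labelled TKO_Ex replicate 3 had Cdh6 at 3.74 and 3.10 FPKM, within the WT ranges. The other TKO_Ex Mb libraries had Cdh6 at 0.345 to 0.388 FPKM. Levels over the whole gene need not show the short deletions, and Cdh8 overlapped the WT range in both TKO_Ex tissues. In the Mb this overlap rested on WT Mb replicate 1, at 1.14 FPKM. TKO_Ex Mb had Cdh8 at 0.851 to 2.32 FPKM, and the other WT Mb libraries were at 3.45 to 10.1 FPKM. Cdh11 overlapped the WT range in TKO_Ex Fb but not in TKO_Ex Mb, at 14.5 to 16.6 FPKM against 17.9 to 28.7 in WT Mb. In TKO_Ex Mb all 3 targeted genes were lower than in WT Mb at an unadjusted p under 0.05 by limma, and none passed the adjusted threshold. In DKO_CD, Cdh6 was at 1.72 to 3.43 FPKM in the Fb and 1.29 to 2.11 FPKM in the Mb. The DKO_CD libraries had Cdh11 at 12.7 to 25.3 FPKM in the Fb and 16.65 to 27.2 FPKM in the Mb. Cdh8 was at 0.449 to 1.44 FPKM in the DKO_CD Fb and 1.005 to 1.465 FPKM in the DKO_CD Mb. These ranges overlapped those of WT in the same tissue, for Cdh8 in the Mb again only through WT Mb replicate 1. Which genes DKO_CD lacked was not tested. TKO_Ex Fb replicate 4 and DKO_CD Fb replicate 2 had the lowest summed forebrain markers of all Fb libraries (112 and 108 FPKM) and the highest summed surface ectoderm markers (227 and 210 FPKM). Replicate numbers were not stated to mark embryos, and p-values measure the spread between libraries.

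In WT Fb, Pcdh18 was the most abundant member and Pcdh1 the next, whereas in WT Mb Pcdh8 stood beside Pcdh18 at the top. All levels compared between members are FPKM, which are per length. In WT Fb the mean was 18.0 ± 2.08 FPKM (SD, n = 6) for Pcdh18 and 9.68 ± 1.15 FPKM for Pcdh1, and their ranges overlapped neither each other nor any other member. Pcdh19 (4.29 ± 1.14 FPKM), Pcdh8 (3.62 ± 1.49 FPKM), Pcdh7 (3.28 ± 0.711 FPKM) and Pcdh9 (1.73 ± 1.23 FPKM) followed, each overlapping the next. In WT Mb, Pcdh8 (26.0 ± 7.34 FPKM) and Pcdh18 (20.4 ± 3.15 FPKM) overlapped, with Pcdh8 above Pcdh18 in 4 of 6 libraries. Pcdh1 (4.53 ± 0.753 FPKM) and Pcdh7 (3.51 ± 0.711 FPKM) came next, well below both, with Pcdh19 at 1.46 ± 0.374 FPKM. Pcdh9, Pcdh17 and Pcdh10 were lowest in the Mb and overlapped each other. Pcdh8 therefore made up 8.66% ± 3.93 (SD, n = 6) of the summed FPKM of the 8 members in WT Fb and 43.6% ± 7.35 in WT Mb. In the same order, Fb then Mb, the share of Pcdh1 was 23.0% ± 3.07 and 7.99% ± 2.38, and that of Pcdh18 was 42.5% ± 3.45 and 34.95% ± 3.38.

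**Figure D1:**
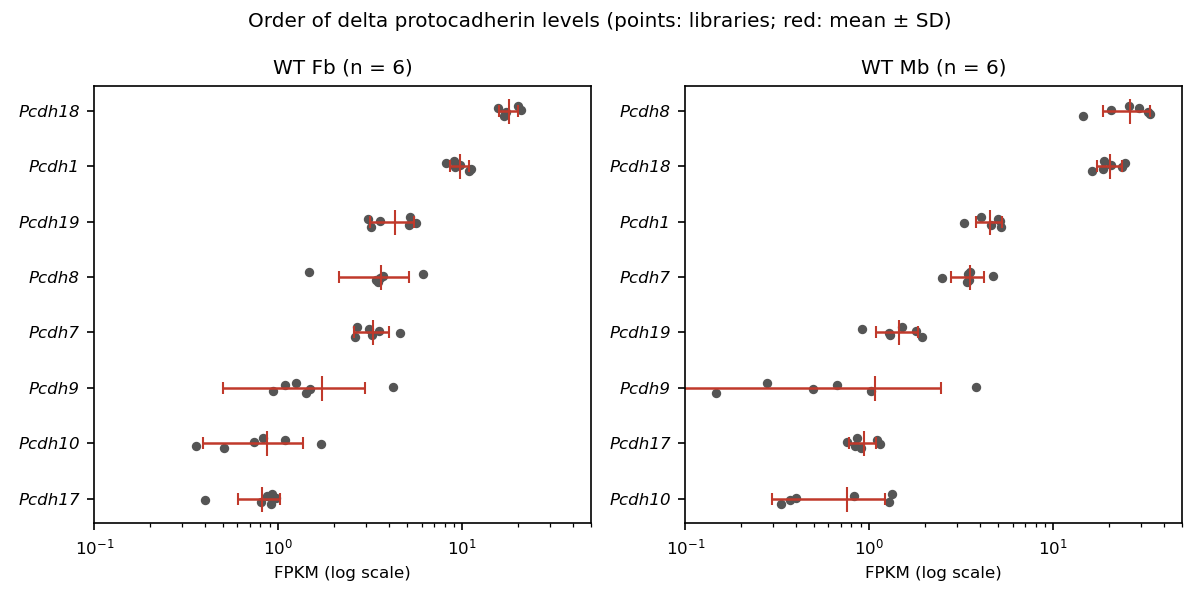
Levels of the 8 delta protocadherins in WT Fb and WT Mb (6 libraries each), ordered by mean, in FPKM on a log axis; points are libraries, and red marks the mean ± SD (bars that pass the left edge are clipped there). Pcdh18 leads in the Fb, and Pcdh8 (14.5 to 33.3 FPKM) and Pcdh18 lead in the Mb.

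Between WT Mb and WT Fb, Pcdh8 was higher in the Mb and Pcdh19 and Pcdh1 were higher in the Fb, while Pcdh7, Pcdh9 and Pcdh18 did not pass the test. The test was limma on log2(FPKM + 1), run on all genes that averaged 1 FPKM or more over the libraries compared, and an adjusted p under 0.05 was the threshold. Of the 8 members, 6 passed the filter in every comparison, while Pcdh10 and Pcdh17 were too low and were not tested. Thus 3 of 6 members differed, 1 higher in the Mb and 2 higher in the Fb, where 8.26% of the 13344 genes tested differed (4.66% higher and 3.6% lower in the Mb). The same 3 members were those whose Fb and Mb libraries did not overlap, as was so for 5.59% of the genes tested. The log2 differences of the 6 had a median of -0.21, against a median of 0.00 over all genes tested. Differences on this scale understate the change of low genes, and with a pseudocount of 5 in place of 1 those of Pcdh19 and Pcdh1 were -0.52 and -0.62, still past the threshold.

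Pcdh8, the paraxial protocadherin relative whose product is known to take part in the internalisation of N-cadherin, ranged in WT Fb from 1.46 to 6.13 FPKM with a median of 3.52. In WT Mb it ranged from 14.5 to 33.3 FPKM with a median of 27.5. The lowest Mb library lay above the highest Fb library, and the difference was 2.56 on the log2 scale (standard error 0.24, limma adjusted p = 1.45e-05). At the smallest depth these levels correspond to 18 to 62 fragments per library in the Fb and 157 to 428 in the Mb. WT Mb replicate 5, with its low isthmus markers, had Pcdh8 at 29.4 FPKM, within the range of the other WT Mb libraries. Pcdh19, an X-linked member known for its partnership with N-cadherin and for a female-limited epilepsy in humans, showed the opposite pattern. It ranged from 3.06 to 5.61 FPKM in WT Fb (median 4.35) and from 0.913 to 1.94 FPKM in WT Mb (median 1.40). All Mb libraries lay below all Fb libraries, with a log2 difference of -1.09 (standard error 0.17, limma adjusted p = 0.000911). Its lowest value was in WT Mb replicate 5, and without that library the difference was still past the threshold, as it was without any other single library (log2 differences of -1.16 to -1.02).

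Pcdh18, whose tail is known to bind the Reelin pathway adaptor Dab1, ranged from 15.6 to 20.9 FPKM in WT Fb (median 17.2) and from 16.3 to 24.4 FPKM in WT Mb (median 19.7). The tissues overlapped widely, and the log2 difference was 0.17 with a 95% interval of -0.07 to 0.41 (limma adjusted p = 0.442). Among all 32 libraries Pcdh18 stayed between 12.2 and 25.5 FPKM and had the smallest coefficient of variation of the 8 members, at 16.9%, against 82.1% for Pcdh8. Pcdh10, the OL-protocadherin, had a mean of 0.872 FPKM in WT Fb and 0.754 FPKM in WT Mb. Pcdh17, a member of synaptic and axonal contacts later in development, had 0.813 FPKM in WT Fb and 0.932 FPKM in WT Mb. Neither was listed at 0 in any library, and the Fb and Mb ranges of both overlapped.

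Of the delta-1 members, Pcdh1, which also mediates adhesion of epithelial cells, ranged from 8.19 to 11.2 FPKM in WT Fb (median 9.41) and from 3.27 to 5.18 FPKM in WT Mb (median 4.78). Every Mb library lay below every Fb library, with a log2 difference of -0.95 (standard error 0.12, limma adjusted p = 0.000139). Pcdh7, known to bind the phosphatase inhibitor Set and protein phosphatase 1, ranged from 2.61 to 4.56 FPKM in WT Fb and from 2.49 to 4.72 FPKM in WT Mb. Its log2 difference was 0.07, with a 95% interval of -0.24 to 0.39 (limma adjusted p = 0.844). Pcdh9, which had the highest coefficient of variation of the 8 over the libraries of either tissue (62.9% in the Fb and 85.4% in the Mb), ranged from 0.932 to 4.20 FPKM in WT Fb (median 1.33) and from 0.147 to 3.80 FPKM in WT Mb (median 0.580). Both highest values belonged to libraries numbered 4, and 4 of 6 Mb libraries lay below all Fb libraries. Its difference of -0.50 did not pass the test and had a wide interval, -1.25 to 0.25 (limma adjusted p = 0.472).

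Markers of other cell types differed between the WT tissues as well. Of the surface ectoderm markers, 5 of 5 tested were lower in the Mb, and their summed level was 58.7 to 96.8 FPKM in the Fb and 23.5 to 36.5 FPKM in the Mb, with Grhl3 listed at 0 in 2 Mb libraries. Of the mesenchyme markers, 5 of 7 tested were lower in the Mb and 1 was higher, with sums of 184 to 214 FPKM and 98.0 to 195 FPKM and no marker listed at 0 in a WT library. Neural crest markers had 1 of 4 lower, and of the 5 endothelial and 5 red cell markers 0 differed by limma. Early neuron markers had 3 of 4 higher in the Mb, with sums of 4.42 to 9.54 FPKM in the Fb and 14.5 to 33.2 FPKM in the Mb, and neuroepithelial markers had 2 of 5 higher. The part of these cell types in the differences of Pcdh8, Pcdh19 and Pcdh1 was not tested.

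**Figure D2:**
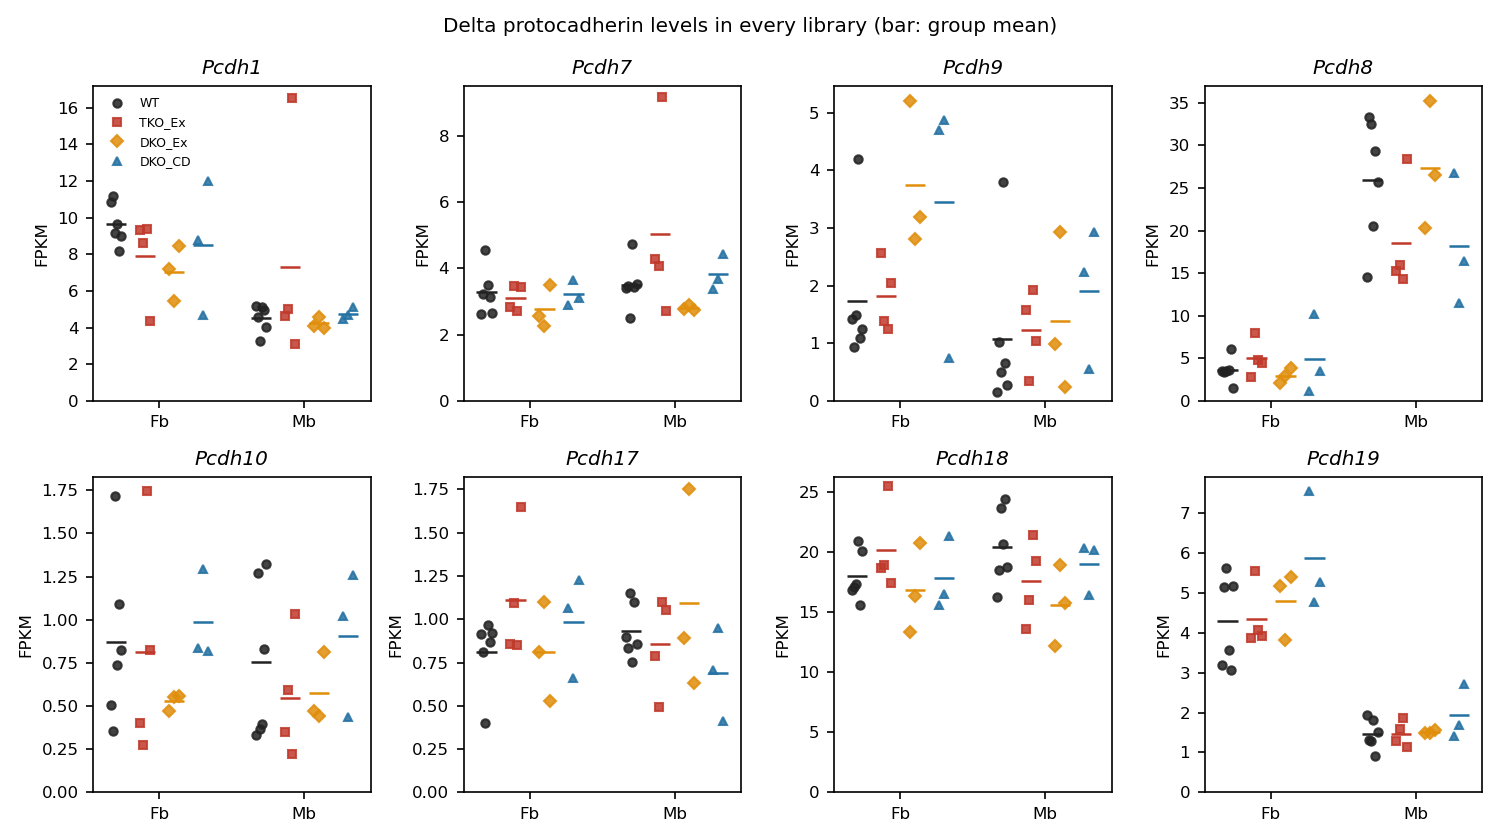
FPKM of each delta protocadherin in every library, Fb on the left and Mb on the right of each panel, coloured by group, with a bar at the group mean (each panel has its own axis from 0). Pcdh8 is higher in the Mb and Pcdh19 in the Fb in all 4 groups without overlap, and a single TKO_Ex Mb library carries Pcdh1 at 16.5 FPKM.

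The next question was whether the regional pattern of the family was also seen within each mutant group. Within TKO_Ex and within DKO_Ex, Pcdh8 was again higher in the Mb and Pcdh19 higher in the Fb, and within DKO_CD no member passed the test. In all 3 mutant groups, the Mb libraries lay above all Fb libraries for Pcdh8 and below all of them for Pcdh19. Such separation occurred for 8.94% of the genes tested in TKO_Ex, 20.5% in DKO_Ex and 15.6% in DKO_CD. In TKO_Ex, 2 of 6 members passed the test, against 2.89% of all genes tested. In DKO_Ex it was 2 of 6, against 2.58%, and in DKO_CD 0 of 6, against 0.507%. In DKO_CD, 2 members (Pcdh8 and Pcdh19) had an unadjusted p under 0.05, as did 10.1% of all genes tested.

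Pcdh8 was at 2.83, 8.01, 4.85 and 4.50 FPKM in the TKO_Ex Fb and at 15.3, 15.96, 14.3 and 28.4 FPKM in the TKO_Ex Mb. Its log2 difference was 1.70 (standard error 0.29, limma adjusted p = 0.0150). The DKO_Ex Fb had Pcdh8 at 2.05, 2.93 and 3.89 FPKM and the DKO_Ex Mb at 20.3, 35.3 and 26.5 FPKM, a log2 difference of 2.83 (standard error 0.25, limma adjusted p = 0.00241). DKO_CD was more scattered in both tissues. The DKO_CD Fb had Pcdh8 at 1.18, 10.2 and 3.47 FPKM and the DKO_CD Mb at 26.8, 11.5 and 16.5 FPKM, with a log2 difference of 1.93 (standard error 0.59, limma adjusted p = 0.324). The high Fb value was that of replicate 2, which also had high surface ectoderm and low forebrain markers. Without that library the log2 difference of Pcdh8 in DKO_CD was 2.55, and it did not pass the test when any single library was left out.

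Pcdh19 was at 3.86, 5.55, 4.06 and 3.91 FPKM in the TKO_Ex Fb and at 1.30, 1.60, 1.86 and 1.14 FPKM in the TKO_Ex Mb. The log2 difference was -1.11 (standard error 0.19, limma adjusted p = 0.0151). The DKO_Ex Fb had Pcdh19 at 5.17, 3.82 and 5.39 FPKM and the DKO_Ex Mb at 1.48, 1.49 and 1.55 FPKM, a log2 difference of -1.20 (standard error 0.21, limma adjusted p = 0.0307). The DKO_CD Fb had Pcdh19 at 7.55, 4.77 and 5.28 FPKM and the DKO_CD Mb at 1.42, 1.69 and 2.70 FPKM, with a log2 difference of -1.23 (standard error 0.26, limma adjusted p = 0.143). Set against the WT difference, the Mb minus Fb difference of Pcdh19 deviated by -0.02 in TKO_Ex (95% interval -0.53 to 0.50), -0.10 in DKO_Ex (-0.67 to 0.46) and -0.14 in DKO_CD (-0.76 to 0.49), none past the limma threshold. The call in DKO_Ex was lost when any 1 library was left out, with adjusted p of 0.0539 to 0.115, and the call in TKO_Ex was lost without TKO_Ex Fb replicate 2 (adjusted p = 0.0533). Without both libraries labelled TKO_Ex replicate 3, neither Pcdh8 (log2 difference 1.81, adjusted p = 0.0891) nor Pcdh19 (-1.21, adjusted p = 0.0740) passed in TKO_Ex. With the replicate number as a block, Pcdh8 passed in both groups and Pcdh19 in neither (adjusted p = 0.0572 in TKO_Ex and 0.0865 in DKO_Ex). With the double knockouts grouped by sample record, the results of DKO_Ex and DKO_CD changed places.

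Pcdh1, which separated the WT tissues, passed the test in no mutant group. It was at 9.32, 8.60, 9.37 and 4.36 FPKM in the TKO_Ex Fb and at 4.62, 5.04, 16.5 and 3.11 FPKM in the TKO_Ex Mb. The Fb value of 4.36 FPKM and the Mb value of 16.5 FPKM were both out of line with the rest of their groups. The log2 difference was -0.29, with a 95% interval of -1.27 to 0.68 (limma adjusted p = 0.874), and with single libraries left out it ran from -0.73 (without Mb replicate 3) to -0.035 (without Mb replicate 4). The DKO_Ex Fb had Pcdh1 at 7.22, 5.48 and 8.45 FPKM and the DKO_Ex Mb at 4.09, 4.60 and 3.99 FPKM. These did not overlap, and the log2 difference of -0.61 had an unadjusted p of 0.0156 and a limma adjusted p of 0.200. The DKO_CD Fb had Pcdh1 at 8.79, 4.71 and 12.01 FPKM and the DKO_CD Mb at 4.49, 4.68 and 5.13 FPKM, with a log2 difference of -0.64 (limma adjusted p = 0.554) that ran from -0.97 without Fb replicate 2 to -0.38 without Fb replicate 3. Pcdh1 was lowest in the Fb in TKO_Ex replicate 4 and DKO_CD replicate 2, which had the lowest forebrain marker sums, and the part of tissue make-up in these values was not tested.

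**Figure D3:**
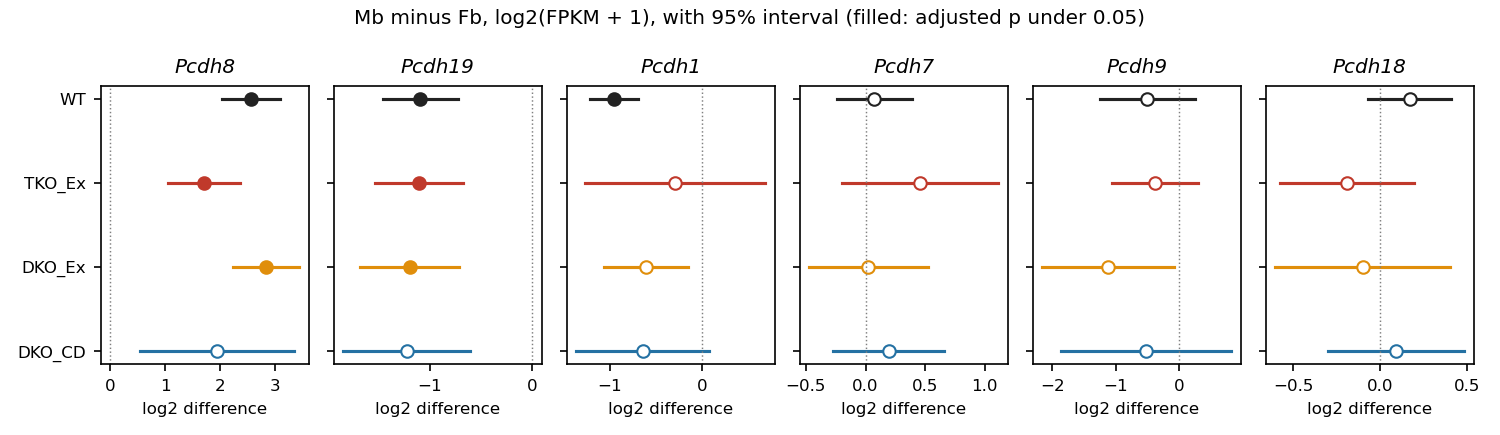
Mb minus Fb difference in log2(FPKM + 1) of the 6 tested members within WT, TKO_Ex, DKO_Ex and DKO_CD, with 95% intervals from limma (each panel has its own axis); filled points had an adjusted p under 0.05. Pcdh8 lies right of 0 (2.56 in WT) and Pcdh19 left of it (-1.09 in WT) in all 4 groups.

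Loss of the type II cadherins was then compared with WT of the same tissue, to ask whether other members of the cadherin superfamily were altered. No delta protocadherin differed from WT in any mutant group, in the Fb or the Mb (0 of 6 tested in each of the 6 comparisons by limma). The lowest adjusted p of any member was 0.588, for Pcdh1 in the DKO_Ex Fb. Over all genes, 0.0898% passed in the TKO_Ex Mb, 0.0603% in the TKO_Ex Fb, 0.0903% in the DKO_Ex Mb, 0.0759% in the DKO_Ex Fb, 0.0375% in the DKO_CD Mb and 0.0378% in the DKO_CD Fb. A count of 0 among 6 members is therefore near the background. At an unadjusted p under 0.05 by limma there were 3 values in all, those of Pcdh1 and Pcdh9 in the DKO_Ex Fb and of Pcdh18 in the DKO_Ex Mb. The share of all genes below the same p was 7.01% in the DKO_Ex Fb and 5.46% in the DKO_Ex Mb, and 8.38%, 8.66%, 6.69% and 8.44% in the TKO_Ex Mb, TKO_Ex Fb, DKO_CD Mb and DKO_CD Fb, so 3 such values among the members are near the background. These 6 comparisons share their WT libraries within a tissue.

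For Pcdh8 in the Mb, the 4 TKO_Ex libraries had a mean of 18.5 ± 6.62 FPKM (SD, n = 4) and the 3 DKO_CD libraries 18.2 ± 7.82 FPKM (SD, n = 3), beside 26.0 ± 7.34 FPKM (SD, n = 6) in WT and 27.4 ± 7.52 FPKM (SD, n = 3) in DKO_Ex. The log2 difference from WT was -0.47 in TKO_Ex (95% interval -1.02 to 0.08, limma adjusted p = 0.660), -0.51 in DKO_CD (-1.17 to 0.14, adjusted p = 0.822) and 0.09 in DKO_Ex (-0.49 to 0.67, adjusted p = 0.987). In the Fb the differences of Pcdh8 were 0.39 in TKO_Ex (-0.25 to 1.03), -0.18 in DKO_Ex (-0.84 to 0.47) and 0.12 in DKO_CD (-0.92 to 1.15). In TKO_Ex the signs were opposite in the tissues, and the test of the effect in the Mb minus that in the Fb gave -0.86 with an unadjusted p of 0.0450 and a limma adjusted p of 0.756. Intervals of this width leave room for changes of Pcdh8 in either direction in most of these comparisons.

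Pcdh19 had differences from WT of 0.01 (95% interval -0.41 to 0.44) in the TKO_Ex Mb, 0.04 (-0.41 to 0.50) in the DKO_Ex Mb and 0.25 (-0.26 to 0.75) in the DKO_CD Mb. In the Fb they were 0.03 (-0.37 to 0.44) in TKO_Ex, 0.15 (-0.31 to 0.61) in DKO_Ex and 0.38 (-0.09 to 0.86) in DKO_CD, and none passed the limma test. For Pcdh1 the Fb differences were -0.30 (-0.72 to 0.11) in TKO_Ex, -0.42 (-0.75 to -0.09) in DKO_Ex and -0.24 (-0.74 to 0.26) in DKO_CD. The Mb differences of Pcdh1 were 0.36 in TKO_Ex, -0.07 in DKO_Ex and 0.07 in DKO_CD. Without the library labelled TKO_Ex Mb replicate 3, the first of these was -0.08.

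Pcdh9 was at 5.21, 2.81 and 3.19 FPKM in the DKO_Ex Fb and at 4.71, 4.87 and 0.753 FPKM in the DKO_CD Fb, whereas 5 of 6 WT Fb libraries were at or below 1.49 FPKM. The remaining WT library, at 4.20 FPKM, made the groups overlap. In the Mb, Pcdh9 was at 0.988, 2.93 and 0.249 FPKM in DKO_Ex and at 2.24, 0.557 and 2.93 FPKM in DKO_CD. At the smallest depth, the levels of Pcdh9 over all 32 libraries correspond to 2 to 100 fragments per library. Pcdh7 was at 4.28, 4.06, 9.15 and 2.70 FPKM in the TKO_Ex Mb, where the high value was that of the same library as the high Pcdh1. In the DKO_Ex Fb, 2 of 3 libraries (2.57 and 2.26 FPKM) had Pcdh7 below the WT Fb range of 2.61 to 4.56 FPKM, and the remaining mutant groups stayed within the WT range of their tissue. Pcdh18 ranged from 12.2 to 18.9 FPKM in the DKO_Ex Mb and from 16.3 to 24.4 FPKM in the WT Mb, with 2 of 3 DKO_Ex libraries below all WT libraries. The untested Pcdh10 and Pcdh17 stayed between 0.222 and 1.75 FPKM in all 32 libraries. Of the differences between the Mb and Fb effects, 0 of 6 members passed by limma in TKO_Ex (0.0149% of all genes), DKO_Ex (0.00%) and DKO_CD (0.00746%). The Pcdh8 value in TKO_Ex was the only 1 of these with an unadjusted p under 0.05, a p that 6.5% of all genes had in TKO_Ex, 3.88% in DKO_Ex and 4.83% in DKO_CD.

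**Figure D4:**
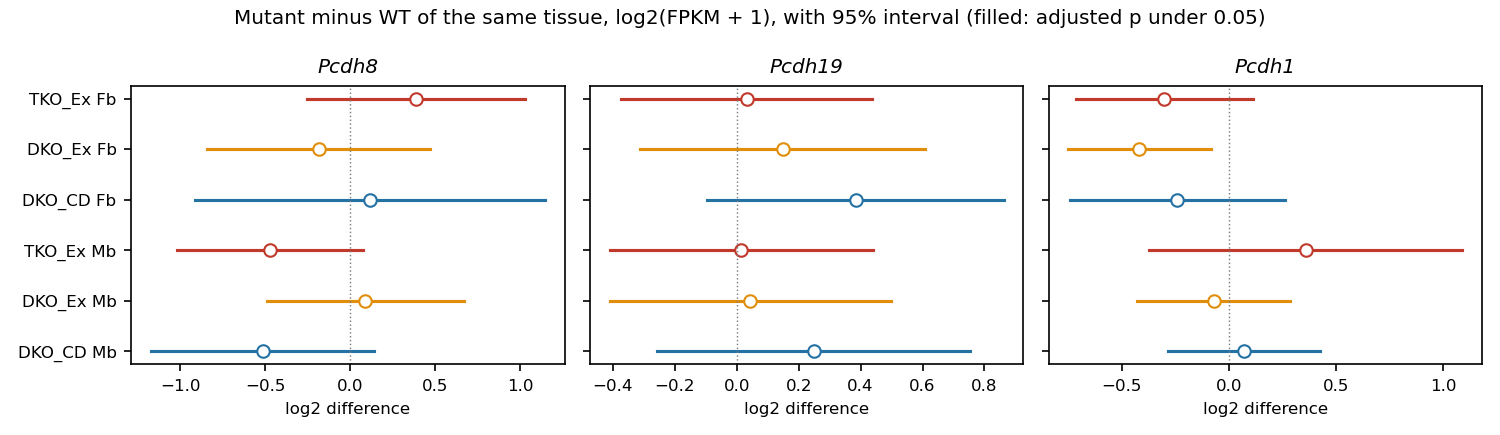
Difference of each mutant group from WT of the same tissue in log2(FPKM + 1) for Pcdh8, Pcdh19 and Pcdh1, with 95% intervals from limma (each panel has its own axis). All points are open, since no adjusted p was under 0.05, and the values run from -0.51 (Pcdh8, DKO_CD Mb) to 0.39 (Pcdh8, TKO_Ex Fb).

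Genes whose products are known to work with delta protocadherins were compared in the same libraries. Of 20 such genes, which hold the WAVE complex, the protein phosphatase 1 catalytic subunits, Cdh2 and signalling partners, 1 was higher and 1 lower in WT Mb than in WT Fb, against 8.26% of all genes called in either direction. An unadjusted p under 0.05 by limma was found for 7 of the 20 and for 20.9% of all genes. Wasf3, a WAVE subunit, was at 11.9 to 17.3 FPKM in WT Fb and 22.0 to 23.8 FPKM in WT Mb, with no overlap and a log2 difference of 0.71 (limma adjusted p = 0.000133). Dab1, the partner of Pcdh18, was at 6.64 to 12.7 FPKM in WT Fb and 2.61 to 7.83 FPKM in WT Mb, with a log2 difference of -0.92 (limma adjusted p = 0.0147). The median of the 20 was 0.02. Against WT, 0 of the 20 differed in any mutant group by limma, and 0 to 2 of them had an unadjusted p under 0.05 in each comparison, near the 5.46% to 8.66% of all genes. Of the other non-clustered protocadherins, Pcdh12, known from endothelium, was at 2.61 ± 0.491 FPKM (SD, n = 6) in WT Fb and 2.57 ± 0.771 FPKM (SD, n = 6) in WT Mb. Pcdh11x, Pcdh15 and Pcdh20 had means of under 1 FPKM in every group and were not tested.

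Within each tissue, the genes whose levels most resembled those of Pcdh8 were Irx5, Dmbx1 and Irx3, all homeobox genes. Likeness was measured as the lower of the Pearson correlations of log2(FPKM + 1) over the 16 Fb and over the 16 Mb libraries, among 8257 protein-coding genes that averaged 5 FPKM or more. For Irx5 the correlations were 0.715 in the Fb and 0.732 in the Mb, for Dmbx1 0.639 and 0.906, and for Irx3 0.612 and 0.650. Dmbx1, a gene of the midbrain and caudal diencephalon, was at 3.73 ± 1.46 FPKM (SD, n = 6) in WT Fb and 34.8 ± 11.9 FPKM (SD, n = 6) in WT Mb. DKO_CD Mb replicate 2, with the lowest Pcdh8 of the Mb at 11.5 FPKM, also had the lowest Dmbx1 there, at 7.75 FPKM. DKO_CD Fb replicate 2 had the highest Pcdh8 of the Fb (10.2 FPKM), and TKO_Ex Fb replicate 4 had the highest Dmbx1 (12.8 FPKM). DKO_CD Fb replicate 2 was also the highest of the Fb for Irx5 (15.4 FPKM) and Irx3 (32.4 FPKM). TKO_Ex Fb replicate 4 came next for both, at 10.5 and 27.6 FPKM. Both libraries had the low forebrain and high surface ectoderm markers given above. The Fb correlations of Pcdh8 without these libraries were not computed. The genes most like Pcdh1 were Hspa9 (0.749 and 0.719), Hspa4 (0.757 and 0.663) and Tbc1d19 (0.655 and 0.708). For Pcdh19 they were Exog (0.601 and 0.567), Stk19 (0.565 and 0.633) and Cep89 (0.546 and 0.571), and for Pcdh18 they were Alg10b (0.631 and 0.685), Iqgap1 (0.598 and 0.572) and Krr1 (0.569 and 0.740). Rps6kb1, Klf3 and Dok4 were most like Pcdh7 and Mgat3, Traf6 and Alg3 most like Pcdh9, with lower correlations of 0.537 to 0.624 and 0.528 to 0.552. The library labelled TKO_Ex Mb replicate 3 had the highest Pcdh1 (16.5 FPKM) and Pcdh7 (9.15 FPKM) of the Mb. It was also the highest there for every gene named as most like Pcdh1 or Pcdh7, such as Tbc1d19 (30.1 FPKM) and Dok4 (10.6 FPKM). The correlations without this library were not computed. These are descriptions picked from many genes over libraries that share groups and differ in depth and dissection.

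**Figure D5:**
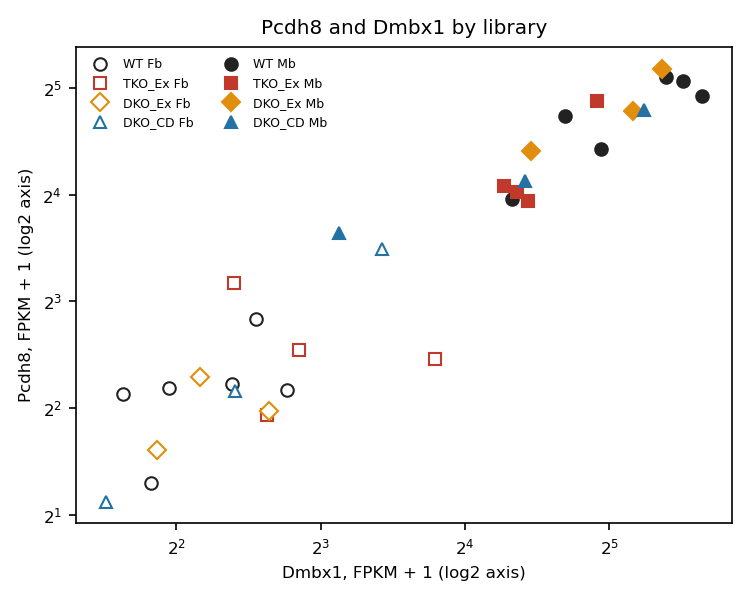
Pcdh8 against Dmbx1 in each of the 32 libraries (FPKM + 1, log2 axes), open symbols for Fb and filled symbols for Mb, with shape and colour for the group. The points form a Fb and a Mb cloud, with correlations of 0.639 within the Fb and 0.906 within the Mb. DKO_CD Mb replicate 2, with Dmbx1 at 7.75 FPKM, falls within the Fb range of Dmbx1, which reaches 12.8 FPKM.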

How the data were processed

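RNA-seq libraries of Fb and Mb tissue were analysed as the authors deposited them, in FPKM per gene from Cufflinks after TopHat2 alignment of directional reads to GRCm38. Tool versions and the annotation are not given in the sources used here. The authors' read counts (HTSeq, tested by them with DESeq2) were not used here. FPKM of 65 repeated identifiers were summed, and names follow GENCODE M21 (48218 of 48576 identifiers). Depth was derived from the spacing of low values over 771 genes with a single transcript and a length of 4000 bp or more; 86.7% to 95.7% of these values fell within 0.1 fragment of a whole number. The smallest depth that matched was used, so fragment numbers scale with it and cover counting error only. Differences were tested with limma 3.58.1 (R 4.3.3) and its trended eBayes on log2(FPKM + 1). Genes that averaged under 1 FPKM over the libraries compared were left out, and p-values were adjusted over all genes by Benjamini-Hochberg. The study's methods were the guide for comparing groups in pairs. Markers were Six3, Six6, Rax, Lhx2, Hesx1, Emx2 and Nkx2-1 (forebrain) and En1, En2, Pax2, Pax5, Pax8, Fgf8 and Lmx1b (midbrain and isthmus), with lists for surface ectoderm, mesenchyme, neural crest, endothelium, red cells, neuroepithelium and early neurons; 1 mesenchyme and 1 early neuron marker were not analysed here, and 1 forebrain marker is not reported here and was left out of that list's counts and sums. The genes named were all members, the targeted genes, other non-clustered protocadherins, the partners past the threshold and the 3 genes most like each member. Members and lists were chosen with earlier results of these data known. Promoters came from RefSeq (GRCm38.p6), matched by symbol for 7 of 8 members. On simulated data for the WT comparison, 84.2% of 95 genes changed by 1 on the log2 scale and 99.0% of 100 changed by 2 were recovered. For a change of 1 between tissues, recovery was 71.7% in TKO_Ex, 62.8% in DKO_Ex and 56.8% in DKO_CD. For the same change it was 72.8% to 85.9% against WT and 46.5% to 52.0% for the Mb minus Fb effects. The simulation set the same dispersion between libraries for all genes, and this gave less spread than some members had, such as Pcdh8 in WT Fb (3.62 ± 1.49 FPKM). Recovery at the spread that the members themselves had between libraries was not tested. Alternatives were pseudocounts of 0.1 and 5, no filter, no trend, median-of-ratios scaling, all 8 groups in one fit, Xist as a covariate, a replicate block, grouping by record and leaving out libraries.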

Additional observations from a re-analysis of the deposited data

Results flagged for a closer look

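A single library lay far from the rest of its group in 7 of 32 sets of values tested, which were the 8 members in each group of 4 to 6 libraries. Chance gives about 1 in 20 for independent and normally distributed values, whereas these sets share libraries and were tested as FPKM. Of Pcdh1, TKO_Ex Fb replicate 4 had 4.36 FPKM, with the next library at 8.60 FPKM, and TKO_Ex Mb replicate 3 had 16.5 FPKM, with the next at 5.04 FPKM. Of Pcdh9, WT Fb replicate 4 had 4.20 FPKM (next 1.49 FPKM) and WT Mb replicate 4 had 3.80 FPKM (next 1.02 FPKM). Of Pcdh8, TKO_Ex Mb replicate 4 had 28.4 FPKM, with the next at 15.96 FPKM. Of Pcdh17, WT Fb replicate 3 had 0.398 FPKM, with the next at 0.810 FPKM, and of Pcdh19, TKO_Ex Fb replicate 2 had 5.55 FPKM, with the next at 4.06 FPKM.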

How the results depend on the processing

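In WT, the 3 calls of Pcdh8, Pcdh19 and Pcdh1 between Mb and Fb held under all 20 alternatives, with log2 differences of 2.39 to 2.71, -1.16 to -1.02 and -0.996 to -0.88 when libraries were left out. The number of members past the threshold in TKO_Ex (2) was 1 with the replicate block, 0 without both libraries labelled replicate 3, and 1 to 2 when single libraries were left out. In DKO_Ex (2) it was 1 with Xist as a covariate, with no filter and with the replicate block, 0 by sample record, and 1 whenever a single library was left out. In DKO_CD (0) it was 2 with all 8 groups in one fit and 2 by record. Against WT and between tissue effects it was 0 under every alternative run. In the comparisons with WT, the replicate block joined mutant and WT libraries by number alone, so there it was no check of the result.

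Some differences from WT changed sign, none past the threshold in either setting. Grouping by record gave Pcdh1 -0.071 in the DKO_CD Mb and 0.071 in the DKO_Ex Mb. It gave Pcdh8 -0.18 in the DKO_CD Fb, 0.090 in the DKO_CD Mb, 0.12 in the DKO_Ex Fb and -0.51 in the DKO_Ex Mb, with 0.27 and -0.63 for the DKO_CD and DKO_Ex effects in the Mb minus the Fb. In the TKO_Ex Mb, Pcdh1 was -0.080 and Pcdh19 -0.059 without both replicates 3, and Pcdh19 was -0.061 with the block. With single libraries or both replicates 3 left out, Pcdh1 ran from -0.016 to 0.58 (DKO_CD, Mb minus Fb), -0.51 to 0.086 (DKO_CD Fb), -0.0016 to 0.11 (DKO_CD Mb) and -0.080 to 0.62 (TKO_Ex Mb). Pcdh19 ran from -0.31 to 0.033 (DKO_CD, Mb minus Fb), -0.026 to 0.097 (DKO_Ex Mb), -0.11 to 0.084 (TKO_Ex, Mb minus Fb), -0.069 to 0.10 (TKO_Ex Fb) and -0.059 to 0.082 (TKO_Ex Mb). Pcdh8 ran from -0.50 to 0.68 (DKO_CD Fb) and -0.10 to 0.28 (DKO_Ex Mb). The cause was not tested.

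Same-numbered Fb and Mb libraries correlated in their deviations by 0.026 to 0.094 in WT, 0.008 to 0.116 in TKO_Ex, 0.076 to 0.123 in DKO_Ex and 0.029 to 0.14 in DKO_CD, and since not every pair was above 0.1 in any group, the numbers were not taken as pairs. Nevertheless, 5 of 6 Mb libraries matched their own number best among the Fb libraries in WT, 3 of 4 in TKO_Ex, 3 of 3 in DKO_Ex and 2 of 3 in DKO_CD, a hint from the data and not from the design. Between mutant and WT libraries of the same tissue, 0 matched their own number best in each of the 6 comparisons. The cut of 0.1 was a choice, and the main tests took Fb and Mb libraries as independent, so they ignore any pairs that the numbers mark. With the replicate block the calls over all genes were 893 in place of 1102 in WT and 40 in place of 68 in DKO_CD. With all 8 groups in one fit they were 663 in place of 389 in TKO_Ex, 542 in place of 344 in DKO_Ex and 362 in place of 68 in DKO_CD. Without both replicates 3 they were 163 in TKO_Ex. Against WT, calls ranged from 0 to 52 over the alternatives. Depth limits Pcdh9, Pcdh10 and Pcdh17 most.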
